A study of Mus musculus with 4 samples.

Results

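γδ T cells are T cells whose antigen receptor pairs a γ with a δ chain. They were looked for in 4 single-cell libraries of sorted CD45+ leukocytes from tumours of MC38, a colon adenocarcinoma line of the mouse. The members were selected on their own UMI counts. A cell barcode was called a γδ T cell when it had at least 2 UMIs (unique molecular identifiers, each standing for 1 captured transcript) summed over Cd3e, Cd3d and Cd3g and at least 2 UMIs of Trdc, the constant segment of the δ chain. It also had to have 0 UMIs of Cd4, Cd8a, Cd8b1, Foxp3, Csf1r and Cd79a and at most 1 UMI of the cycling genes Mki67 and Top2a together. This rule found 272 cells among 32396 kept cells, 73 and 74 in the WT libraries 1 and 2, and 52 and 73 in their cKO counterparts. The WT mice and the Ufl1 cKO mice were 8 weeks old, received MC38 cells under the skin and no other treatment, and were sampled on day 16. Ufl1 encodes the ligase that attaches the ubiquitin-like protein UFM1 to its targets, and by the study's title it was ablated in T cells. Neither the Cre driver nor the deleted exons are named in the labels. Whether each library came from its own mouse is not stated either, so p-values measure only the spread between these libraries. Between the WT libraries this spread may be technical. The cKO libraries differed from each other in sex-linked transcripts, as given further on. The question put by the design was whether the γδ T cells differed between WT and cKO tumours.

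Mouse γδ T cells leave the thymus already committed to making either interleukin-17 or interferon-γ. The IL-17 producers depend on the transcription factors SOX13 and MAF and on the kinase BLK, respond to IL-1 and IL-23 without a new antigen encounter, and settle in tissues such as skin, lung and uterus. The IFN-γ producers carry T-bet (Tbx21) and natural killer receptors and can kill. In tumours the 2 kinds of cell are known for opposed roles. SCART1, the product of Cd163l1, is a surface receptor of IL-17-producing γδ T cells, and the pair of variable segments Trgv6 and Trdv4 is the receptor of a wave of foetal IL-17 producers.

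The 4 libraries held 64141857 to 79747752 UMIs, and a γδ T cell had a median of 6193.5 UMIs. WT replicate 1 and cKO replicate 2 shared 479 barcodes, against 85 to 104 for each other pair of libraries. In these shared pairs the deeper copy had a median of 22923 UMIs and the shallower copy 638. Only 5 γδ T cells carried such a barcode, 3 in WT replicate 1 and 2 in cKO replicate 2, and leaving them out moved no count of called genes by more than 1.5 times in the comparisons with αβ T cells, with NK cells, by Trdv4 and between genotypes. The Trgv6 comparison was not run without them. In the γδ T cells of cKO replicate 2, Xist had 158 UMIs and 4 Y-linked genes together had 0, whereas the γδ T cells of the other 3 libraries had 0 to 1 UMIs of Xist and 70 to 91 UMIs of the Y-linked genes. That library therefore stood apart in sex-linked transcripts from the other cKO library and from both WT libraries, and values without it are given where they differ.

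Most members held V segments of both chains, which the rule did not use. A variable (V) segment of the γ or δ chain was found in 266 of the 272 cells (97.8%), a γ V segment in 247, a δ V segment in 245, and both in 226 (83.1%). In the αβ T cells described further on, which have no Trdc UMI, a γ or δ V segment was found in 39.2%, a γ V segment in 28.0% and both chains in 2.41%. In natural killer (NK) cells a γ or δ V segment was found in 46.2% and both chains in 0.616%. The δ V segments counted here include dual-use segments such as Trav13-4-dv7, which an α chain can also use. A δ V segment was found in 13.6% of the αβ T cells. A single V segment was thus not particular to γδ T cells. At least 2 UMIs of an αβ V segment were found in 54 cells, and at least 2 UMIs of the αβ constant segments Trac, Trbc1 and Trbc2 in 112 cells. Ncr1 or Klrb1c, which mark NK cells, had a UMI in 60 cells. By the labels the kit reads the 3′ end of transcripts, where the constant segments lie. Yet 74.8% of the γδ segment UMIs were on V segments (4913) and the rest on constant segments (1659). The joining (J) segments had no UMI.

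The δ V segment Trdv4 had the most UMIs of any γδ segment. It had 2284 UMIs in the γδ T cells, or 492 and 673 in the WT libraries and 133 and 986 in the cKO libraries. Trgv6 followed with 893 UMIs, then Trgv2 with 551, the dual-use segment Trav13-4-dv7 with 260, Trdv5 with 192, Trgv4 with 180 and Trdv2-2 with 126. A pair of V segments is shown, Trdv4 because it defines the split used further on, and Trgv2 because it led the γ V UMIs in 64 of the 137 cells without Trdv4. The coding part of Trdv4 has 345 bases (chr14:54074905-54075515, plus strand) and that of Trgv2 has 350 bases (chr13:19336573-19337167, minus strand), both as in GENCODE M21 on GRCm38, and the last 300 bases of each are given. The capitals mark the run of Tyr-Tyr-Cys codons before the join to the next segment, which both share.
Trdv4: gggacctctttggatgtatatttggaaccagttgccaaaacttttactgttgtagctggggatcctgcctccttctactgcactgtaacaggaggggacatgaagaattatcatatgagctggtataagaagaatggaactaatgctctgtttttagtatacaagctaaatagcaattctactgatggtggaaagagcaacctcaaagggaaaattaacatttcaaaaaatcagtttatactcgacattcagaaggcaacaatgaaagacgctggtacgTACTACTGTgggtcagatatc
Trgv2: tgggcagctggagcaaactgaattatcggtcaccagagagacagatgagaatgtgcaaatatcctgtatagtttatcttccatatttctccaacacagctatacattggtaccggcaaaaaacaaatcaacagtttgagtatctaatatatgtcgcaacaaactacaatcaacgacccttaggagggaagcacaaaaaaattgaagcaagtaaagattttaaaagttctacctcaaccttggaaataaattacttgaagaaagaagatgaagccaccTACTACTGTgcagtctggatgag

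Trdv4 went mostly with Trgv6. Each cell was given the γ segment that led its γ V UMIs. Of the 106 cells given Trgv6, 101 (95.3%) had at least 2 Trdv4 UMIs, whereas this held for 12 of 80 cells given Trgv2 (15%) and for 0 of 26 given Trgv4. It also held for 5 of 6 cells given Trgv5 and for 10 of the 47 cells in which no γ segment led. These numbers are sums over the 4 libraries. Trdv4 alone does not name a γδ T cell, because 36.3% of NK cells also had a Trdv4 UMI and 12.7% had at least 2. A γ V segment was found in 1.16% of NK cells. In Csf1r-positive myeloid cells, which lack a T cell receptor and so show the level of free RNA, 1.13% of cells had a Trdv4 UMI at a median of 10119 UMIs.

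Among the γδ T cells, 128 had at least 2 Trdv4 UMIs, 7 had 1, and 137 had 0. The share with at least 2 was 37.0% in WT replicate 1, 51.4% in WT replicate 2, 21.2% in cKO replicate 1 and 71.2% in cKO replicate 2. The 2 cKO libraries were the lowest and the highest, so the genotypes overlapped fully, with 44.2% ± 10.2 in WT and 46.2% ± 35.4 in cKO (SD, n = 2 each, two-sided exact permutation p = 1.0, where 2 against 2 libraries cannot go below 0.333).

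**Figure D1:**
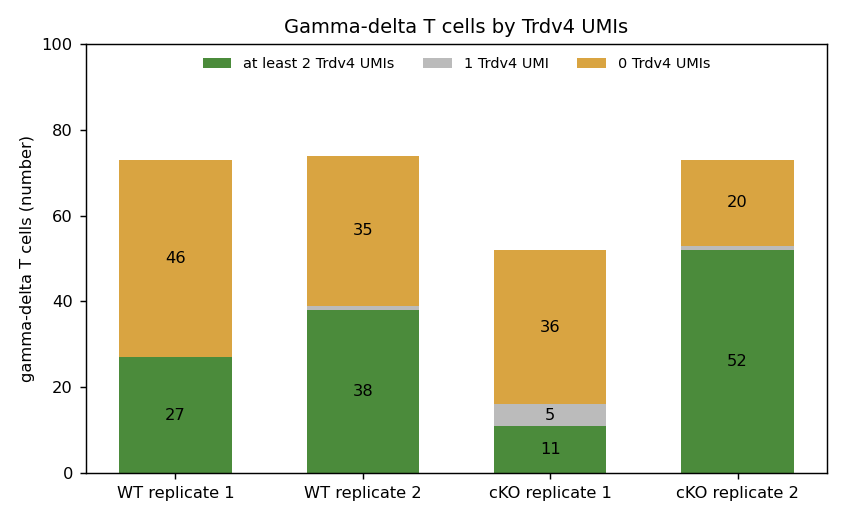
Number of γδ T cells (vertical axis) in each of the 4 libraries (horizontal axis), stacked by the number of Trdv4 UMIs in the cell. The cells with at least 2 Trdv4 UMIs number 27, 38, 11 and 52 from left to right.

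The γδ T cells made up 1.00% of the kept cells in WT replicate 1 (exact 95% binomial interval 0.788 to 1.26), 0.791% in WT replicate 2 (0.621 to 0.992), 0.669% in cKO replicate 1 (0.500 to 0.876) and 0.913% in cKO replicate 2 (0.716 to 1.15). These intervals cover counting error only. The share was 0.898% ± 0.151 in WT and 0.791% ± 0.172 in cKO (SD, n = 2 each), a difference within the spread between libraries (two-sided exact permutation p = 0.667). A second denominator was the cells with at least 2 CD3 UMIs that also met the rule's limits on Csf1r, Cd79a and the cycling genes. Of these, the γδ T cells were 10.6% and 5.07% in WT and 6.87% and 6.09% in cKO (two-sided exact permutation p = 1.0). Just outside the rule, 155 cells met every other condition with 1 Trdc UMI, of which 91.6% had a γδ V segment, 37.4% an Il17a UMI and 47.1% a Cd163l1 UMI. Just inside it, 118 cells had 2 Trdc UMIs, with 95.8%, 36.4% and 47.5% for the same measures. A UMI of Ncr1 or Klrb1c was found in 31.0% just outside and 19.5% just inside. In cKO replicate 1 the 2 sides were less alike, with Il17a in 34.5% of 29 cells outside and 10.5% of 19 inside, Cd163l1 in 55.2% and 26.3%, and at least 2 Trdv4 UMIs in 44.8% and 21.1%.

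The 2 markers that go with the name were present. Il17a, which encodes the cytokine IL-17A, had a UMI in 43.4% of γδ T cells, 3.74% of αβ T cells, 0.15% of NK cells and 0.16% of Csf1r-positive cells. When every cell was thinned to 2000 UMIs, leaving out 3 shallower γδ T cells, the γδ share was 37.9%. Cd163l1 had a UMI in 50% of γδ T cells, or 47.6% after thinning, in 0.94% of αβ T cells, in 0.23% of NK cells and in 0.14% of Csf1r-positive cells. Each marker was thus without a UMI in at least 50% of the γδ T cells, and the Trdv4 comparison further on shows in which cells they lay.

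γδ T cells were first set against the αβ T cells of the same tumours, 1496 cells with no Trdc UMI, at least 2 αβ constant UMIs, UMIs of either Cd4 or Cd8 but not both, and no Foxp3 UMI. UMIs were summed per library and cell set, and levels are given as CPM, UMIs scaled to 1000000 UMIs of that sum. Where 4 levels are given, the WT libraries 1 and 2 come first and the cKO libraries 1 and 2 follow. The IL-17 programme was higher in γδ T cells, together with some NK receptors and chaperones of the endoplasmic reticulum, while inhibitory receptors and the T cell co-receptors CD5, CD6 and CD28 were lower. Of 7429 genes tested with edgeR's quasi-likelihood test and the library as a block, 153 were higher and 79 lower at an adjusted p under 0.05 (2.06% and 1.06%, together 3.12%). Genes used by the cell rules and receptor segments were left out of these counts.

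Of 24 genes of the IL-17 programme, 21 were tested, 14 were higher and 0 lower, and their median log2 fold change was 2.69, against -0.01 over all genes tested. The list includes Il17a and Cd163l1, for which these cells are known, and was drawn up with earlier results of these data known. Il17a stood at 908, 1337, 131 and 1699 CPM in γδ T cells and at 159.6, 26.6, 64.7 and 23.7 in αβ T cells. Cd163l1 stood at 459.8, 605, 245 and 1021 CPM in γδ T cells and at 0.972 to 2.64 in αβ T cells. cKO replicate 1 was the lowest of the 4 libraries for both genes, and the γδ and αβ values overlapped for Il17a but not for Cd163l1.

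Other members of that programme had not been used to name the cells. Blk, a Src-family kinase needed by IL-17-producing γδ T cells, stood at 129.7, 144, 35.6 and 279 CPM in γδ T cells and had 3 UMIs in all αβ T cells. Its summed level was 618 times as high in γδ T cells, with an exact 95% counting interval of 209 to 3010 (adjusted p = 1.64e-06 over the 4 libraries). Sox13 stood at 39.3, 36.1, 22.3 and 55.4 CPM against 1 UMI in all αβ T cells, a ratio of 478 with a counting interval of 83.2 to 19100 (adjusted p = 3.28e-05). Zbtb16, whose product PLZF is a transcription factor of innate-like lymphocytes, stood at 41.3, 48.1, 22.3 and 85 CPM against 3 UMIs, a ratio of 205 with a counting interval of 68.2 to 1010 (adjusted p = 3.95e-05). The 3 genes were close to empty in αβ T cells in every library. Aqp3, a channel for water and glycerol, stood at 214, 287, 66.8 and 455 CPM against 10.2 to 29 (log2 fold change 3.65 ± 0.47 SE, adjusted p = 0.00218), and Il1r1, the IL-1 receptor, at 29.5, 76.2, 13.4 and 71.2 CPM against 0.866 to 5.83 (4.20 ± 0.63, adjusted p = 0.00558).

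Further genes among those with the largest differences were no list members or had other roles. Ltb4r1, the receptor for the leukocyte attractant leukotriene B4, stood at 124, 102, 24.5 and 154 CPM against 9.09 to 17.8 (log2 fold change 2.91 ± 0.40, adjusted p = 0.0033). Selenop, the selenium carrier selenoprotein P, stood at 222, 279, 84.6 and 369.9 CPM against 17.8 to 41.3 (2.91 ± 0.39, adjusted p = 0.00264). Actn2, an actin-crosslinking α-actinin, stood at 151, 166, 60.1 and 312 CPM against 11.7 to 42.3 (2.68 ± 0.45, adjusted p = 0.0103). cKO replicate 1 had the lowest γδ level for all 3 genes, and for each of them every γδ value was above every αβ value. Itgae, the αE integrin that holds T cells in epithelia, stood at 88.4, 148, 66.8 and 202 CPM against 14.7 to 32.1 (2.53 ± 0.31, adjusted p = 0.00141).

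Of 15 NK receptor genes tested, 7 were higher and 0 lower, with a median log2 fold change of 0.81. Klra1 and Klra7, members of the Ly49 family, had log2 fold changes of 2.48 ± 0.34 (adjusted p = 0.00306) and 2.61 ± 0.50 (adjusted p = 0.0181). Their family has near-identical copies, so reads could be split between them. Cd226, an activating receptor shared by NK and T cells, stood at 165, 156, 149 and 189.9 CPM against 71.2 to 105 (0.87 ± 0.13, adjusted p = 0.00643). The summed level of 8 NK marker genes was 980 to 2025 CPM in γδ T cells, 648 to 1068 in αβ T cells and 12430 to 16170 in NK cells, and its part in these differences was not tested. Gzmc, a granzyme with near-identical relatives, was the only called higher gene of 21 tested in the type-1 and cytotoxic list, at 1906, 505, 443 and 831 CPM against 109, 123, 46.2 and 568 (2.49 ± 0.50, adjusted p = 0.0247). Single cells carried these levels: 1 cell held 898 of the 970 Gzmc UMIs in WT replicate 1, 1 held 228 of 252 in WT replicate 2 and 1 held 411 of 420 in cKO replicate 2. Without the top cell of each library the levels were 147, 49.8, 299.9 and 18.5 CPM, above the αβ level in 2 of 4 libraries. In the γδ T cells with at most 1 αβ constant UMI its difference was 0.85 (adjusted p = 0.419). The same list had 3 lower genes, which were the granzyme Gzmk with a log2 fold change of -5.45 ± 0.35 (adjusted p = 2.14e-05), Ifng with -2.09 ± 0.33 (adjusted p = 0.00815) and the chemokine Ccl4 with -1.86 ± 0.36 (adjusted p = 0.0187).

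Of 17 inhibitory and costimulatory receptor genes tested, 9 were lower and 1, Cd226, was higher, and the median log2 fold change was -1.03. Tnfrsf4, which encodes the costimulator OX40, stood at 0, 6.01, 2.23 and 1.98 CPM against 88.4 to 157 (log2 fold change -5.33 ± 0.37, adjusted p = 3.27e-05). Lag3, an inhibitory receptor, stood at 11.8, 18, 20 and 19.8 CPM against 61.3 to 211 (-2.89 ± 0.23, adjusted p = 6.1e-05). Ctla4, which competes with CD28 for its ligands, stood at 13.8, 44.1, 24.5 and 27.7 CPM against 142 to 201 (-2.64 ± 0.19, adjusted p = 3.95e-05). For these 3 genes the γδ and αβ libraries did not overlap. Pdcd1, which encodes PD-1, stood at 124, 212, 105 and 350.1 CPM in γδ T cells and at 168, 694, 303 and 507 in αβ T cells, so that the sets overlapped (-1.03 ± 0.22, adjusted p = 0.0314). In the γδ T cells with at most 1 αβ constant UMI the Pdcd1 difference was -0.50 (adjusted p = 0.308).

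Of 19 genes of receptor signalling tested, 7 were lower and Blk was higher. Cd5 and Cd6, scavenger-receptor co-receptors that restrain signalling, stood at 19.8 to 27.5 CPM against 134 to 277 and at 1.98 to 32.1 CPM against 149 to 242 (-2.97 ± 0.20, adjusted p = 3.27e-05, and -3.16 ± 0.35, adjusted p = 0.00073). Cd28, the costimulatory receptor for CD80 and CD86, stood at 19.8 to 53.5 CPM against 164 to 254 (-2.37 ± 0.21, adjusted p = 0.00016). Cd40lg, the ligand by which helper T cells license B cells and dendritic cells, had 3 UMIs in all γδ T cells and 451 in αβ T cells, a level 23.9 times as high in αβ T cells (exact 95% counting interval 8.13 to 116, adjusted p = 0.000583). Slamf6, Ccl1, Ifitm1 and Mt1 were also among the strongly lower genes, with log2 fold changes of -2.66 ± 0.30, -3.42 ± 0.73, -4.16 ± 0.44 and -2.83 ± 0.25 (adjusted p from 0.000139 to 0.0321).

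Of 17 genes of the endoplasmic reticulum stress list tested, 7 were higher and 0 lower, with a median log2 fold change of 0.62. Sdf2l1, a chaperone cofactor, stood at 129.7, 160.3, 86.9 and 202 CPM against 53.5 to 85 (1.07 ± 0.14, adjusted p = 0.00218). Pdia6, a disulphide isomerase, had a difference of 0.88 ± 0.13 (adjusted p = 0.00414), and Herpud1, a factor of protein degradation at that membrane, 0.90 ± 0.13 (adjusted p = 0.00543). Of the 8 UFM1 conjugation genes tested, 0 were called in either direction. Junb, an AP-1 factor, had a difference of 0.94 ± 0.17 (adjusted p = 0.0155) and was 1 of 4 higher genes among 21 tested in the activation list. In the type I interferon list only Ifi27l2a was called, at -1.90 ± 0.19 (adjusted p = 0.000415), and Lgals3, which encodes galectin-3, was the only called lipid-handling gene, at -1.21 ± 0.15 (adjusted p = 0.00176).

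Single libraries moved these counts: 57 genes were higher and 51 lower without WT replicate 1, 88 and 68 without WT replicate 2, 275 and 106 without cKO replicate 1, and 54 and 37 without cKO replicate 2. The calls of Il17a, Junb, Pdcd1, Klra7, Ccl1, Gzmc, Actn2, Ccl4 and Il1r1 were lost in at least 1 alternative, each with the direction kept.

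**Figure D2:**
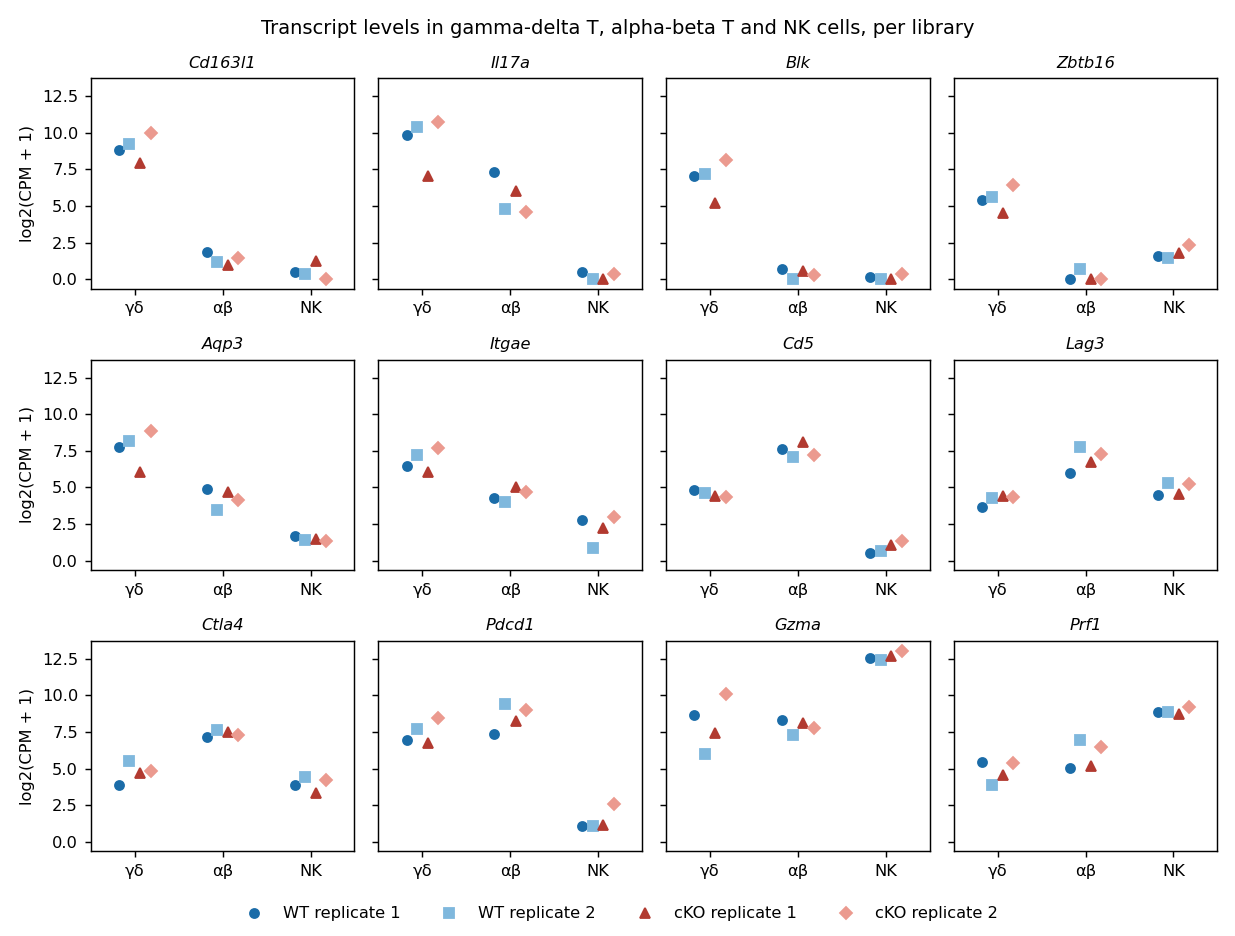
Level of 12 genes as log2(CPM + 1) (vertical axis) in γδ T, αβ T and NK cells (horizontal axis), with 1 point for each of the 4 libraries. Cd163l1 and Blk lie high in γδ T cells alone, Cd5, Lag3 and Ctla4 lie highest in αβ T cells, and Gzma and Prf1 in NK cells.

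NK cells, 2596 cells with Ncr1 UMIs and no CD3, Cd4 or Cd8 UMI, were the second point of reference. γδ T cells were higher in the IL-17 programme and in interferon-induced genes, and lower in cytotoxic genes and NK receptors. Of 8657 genes tested, 806 were higher and 592 lower in γδ T cells (9.31% and 6.84%, together 16.1%), and without WT replicate 2 the counts were 538 and 372. In the IL-17 programme 19 of 21 genes tested were higher and 0 lower, with a median log2 fold change of 8.18. Blk had 2 UMIs in all NK cells and was 1600 times as high in γδ T cells (exact 95% counting interval 438 to 13200). Il23r and Il1r1, the receptors for IL-23 and IL-1, had 1 and 2 UMIs in NK cells, with ratios of 865 (151 to 34600) and 514 (138 to 4300). Sox13 and Il17re, a subunit of the IL-17C receptor, had 0 UMIs in NK cells and were at least 274-fold and 234-fold higher in γδ T cells, taking 3 counts over all NK cells as the floor. Cxcr6, the receptor for CXCL16, stood at 234, 297, 120.3 and 483 CPM against 3.05 to 4.83 (6.04 ± 0.21, adjusted p = 1.38e-11).

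Of 17 genes of receptor signalling tested, 7 were higher and 3 lower, with a median log2 fold change of -0.024. Blk, Lat, Cd5, Cd247, Lcp2 and Zap70 were among the higher ones, and the lower ones were Fcer1g, Txk and Ptprc. Lat, the adaptor that links the receptor to downstream signalling, stood at 452, 561, 341 and 637 CPM against 43.8 to 58.8 (3.33 ± 0.13, adjusted p = 5.71e-11). Cd5 had a log2 fold change of 4.73 ± 0.46 (adjusted p = 2.03e-06), so its level in γδ T cells lay between those of NK and αβ T cells. Outside that list Bcl11b, a factor that fixes T cell identity, had 5.91 ± 0.41 (adjusted p = 5.23e-08), and the IL-7 receptor Il7r 5.38 ± 0.16 (adjusted p = 2.43e-12). Pdcd1 stood at 1.11, 1.14, 1.27 and 5 CPM in NK cells and was higher in γδ T cells by 6.57 ± 0.21 (adjusted p = 3.97e-12), whereas it was lower than in αβ T cells. Tnf had a difference of 2.93 ± 0.19 (adjusted p = 2.02e-08) and Itgae 4.74 ± 0.30 (adjusted p = 1.94e-08).

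The cytotoxic list went the other way, with 19 of 22 genes tested lower, 0 higher and a median log2 fold change of -1.54. Gzma, a granzyme, stood at 399, 64.1, 174 and 1112 CPM in γδ T cells against 5429 to 8564 (-4.37 ± 0.37, adjusted p = 4.49e-07), and was highest in cKO replicate 2. Prf1, the pore-forming perforin, stood at 43.2, 14, 22.3 and 41.5 CPM against 419 to 589.6 (-3.97 ± 0.19, adjusted p = 6.05e-10). Of 19 NK receptor genes tested, 15 were lower and 2, Cd226 and Cd160, were higher, and the median was -2.10. Klra8 and Klra4 of the Ly49 family had log2 fold changes of -4.73 ± 0.27 and -3.48 ± 0.23 (adjusted p = 7.7e-09 and 3.2e-08), with the reservation on near-identical copies given above. Fcer1g, a signalling chain of Fc and NK receptors, stood at 449 to 933 CPM against 2884 to 3098 (-2.11 ± 0.17, adjusted p = 2.26e-07), and Spp1, osteopontin, had -3.63 ± 0.36 (adjusted p = 3.02e-06).

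Genes induced by interferons were higher in γδ T cells than in NK cells. Of 22 tested in the type I interferon list 14 were higher and 1 lower (median 0.71), and of 21 in the interferon-γ list 15 were higher and 0 lower (median 0.66). Tgtp1, an interferon-γ-induced GTPase, stood at 29.5, 62.1, 64.6 and 59.3 CPM against 3.05 to 4.83 (3.87 ± 0.28, adjusted p = 7.41e-08). Ifi27l2a was higher by 2.69 ± 0.23 than in NK cells (adjusted p = 5.69e-07), while it was lower than in αβ T cells. Ly6c2, a surface protein of monocytes and of memory T cells with near-identical relatives, stood at 1713, 2531, 2799 and 661 CPM against 155 to 346 (3.06 ± 0.35, adjusted p = 1.31e-05). Hspa1b, an inducible heat shock protein with the near-identical copy Hspa1a, had 1.41 ± 0.13 (adjusted p = 1.03e-06). The summed level of 14 macrophage and monocyte markers, Ly6c2 among them and Csf1r at 0 by the rule, was 1430 to 3503 CPM in γδ T cells, 2444 to 3836 in αβ T cells and 506 to 729 in NK cells, and its part in these differences was not tested. Ly6c2 alone made up 1713, 2531, 2799 and 661 CPM of the γδ sums of 2289, 3503, 3352 and 1430. In γδ T cells neutrophil markers summed to 0 to 23.7 CPM, with 4 of 6 genes at 0, and B cell markers to 32.1 to 64.6 CPM, with 5 of 7 genes at 0.

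The γδ T cells were then compared among themselves by Trdv4. A comparison by Trgv6, called at 2 or more UMIs and 75% or more of a cell's γ V UMIs, had been planned, but only WT replicate 1 had at least 10 cells on both sides. The split into cells with at least 2 Trdv4 UMIs and cells with 0 was chosen after the receptor UMIs had been seen. The 128 cells with Trdv4 carried the IL-17 programme together with PD-1 and ICOS, and the 137 cells without it carried cytotoxic, XCL1 and NK receptor transcripts. Of 3392 genes tested 356 were higher and 355 lower in the cells with Trdv4 (10.5% in each direction, together 21.0%). The cells with Trdv4 had a median of 5646.5 UMIs and those without it 7275, and cKO replicate 1 had only 11 cells with Trdv4, with 70126 UMIs in all. Without WT replicate 2 the counts were 255 higher and 234 lower. When the cells were split by the γ segment that led instead, Trgv6 against any other, 230 of 2996 genes were higher and 243 lower (7.68% and 8.11%, together 15.8%). Without WT replicate 2 the Trgv6 counts were 92 and 149.

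In the IL-17 programme 18 of 19 genes tested were higher with Trdv4 and 0 lower, with a median log2 fold change of 2.91 against -0.015 over all genes tested. Cd163l1 stood at 1518, 1440.0, 1312 and 1588 CPM with Trdv4 and at 43.8, 3.66, 27.7 and 28.2 without it (5.66 ± 0.27, adjusted p = 5.57e-11). It had a UMI in 99.2% of cells with Trdv4 and 5.84% of cells without it, or 91.3% and 4.44% after thinning to 2000 UMIs. Its level with Trdv4 was similar in the 4 libraries, in contrast to its level over all γδ T cells, which ranged from 245 to 1021 CPM. Maf, a transcription factor needed by IL-17-producing γδ T cells, stood at 265, 325, 143 and 304 CPM against 6.15 to 56.4 (3.16 ± 0.29, adjusted p = 4.43e-07).

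Il17a itself was less uniform. It stood at 2375, 3182, 613 and 2020.0 CPM with Trdv4 and at 331, 7.32, 18.4 and 1180.0 without it (3.11 ± 0.59, adjusted p = 0.000824). Within each library the cells with Trdv4 were higher, but the cells without Trdv4 of cKO replicate 2 were above the cells with Trdv4 of cKO replicate 1. Without the 1 cell that held 115 of their 209 Il17a UMIs, the former stood at 555 CPM, below the latter. The latter also had 1 cell with 20 of their 43 Il17a UMIs, and without it they stood at 365 CPM. With both top cells left out, the former were thus still above the latter. A UMI of Il17a was found in 78.1% of cells with Trdv4 and 12.4% of cells without it. Sox13 had a difference of 2.91 ± 0.42 (adjusted p = 5.9e-05), Zbtb16 of 2.86 ± 0.38 (adjusted p = 2.28e-05) and Tmem176a, which encodes an ion channel, of 3.23 ± 0.26 (adjusted p = 1.18e-07). Serpinb1a, a protease inhibitor, stood at 459.6, 579, 143 and 398 CPM against 0 to 113 (3.54 ± 0.43, adjusted p = 9.94e-06).

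Receptors for cytokines and chemokines divided the same way. Il1r1 stood at 76.6, 177, 85.6 and 99.4 CPM with Trdv4 and at 0 to 22.6 without it (3.47 ± 0.50, adjusted p = 4.91e-05). Il7r had a log2 fold change of 1.82 ± 0.24 (adjusted p = 2.1e-05), Il2ra, a subunit of the IL-2 receptor, of 1.83 ± 0.28 (adjusted p = 0.000108) and Il18r1 of 1.36 ± 0.24 (adjusted p = 0.000385). In all 6 of 16 cytokine receptor genes tested were higher and 3 lower. Ccr2, the receptor for CCL2, stood at 286, 330.2, 171 and 295 CPM against 14.6 to 113 (2.38 ± 0.32, adjusted p = 2.84e-05). Cxcr6 stood at 529, 589, 314 and 665 CPM against 86.1 to 169 (2.07 ± 0.19, adjusted p = 3.57e-07). Of the integrin and residency genes, 7 of 13 tested were higher and 2 lower, among them Itgae with 1.94 ± 0.31 (adjusted p = 0.000138) and Itgb7, the chain it pairs with, with 1.12 ± 0.15 (adjusted p = 2.87e-05).

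Of 7 cytokine genes tested, 5 were higher with Trdv4 and 1, Ifng, was lower. Areg, the growth factor amphiregulin, stood at 529, 258, 0 and 398 CPM with Trdv4 and at 15.4 to 43.8 without it (3.17 ± 0.35, adjusted p = 3.43e-06). The level of 0 in cKO replicate 1 came from a sum of 70126 UMIs, too few to show a direction at the levels found without Trdv4. Tnf stood at 418, 354, 185 and 304 CPM against 21.9 to 113 (2.11 ± 0.30, adjusted p = 4.53e-05). Ltb, which encodes lymphotoxin β, stood at 696 to 1050.0 CPM against 283 to 361 (1.27 ± 0.16, adjusted p = 1.14e-05).

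Pdcd1 was concentrated in the cells with Trdv4. It stood at 376, 436, 428 and 513 CPM with Trdv4 and at 24.6, 54.9, 27.7 and 67.7 without it (3.25 ± 0.24, adjusted p = 2.57e-08), and it had a UMI in 75.8% and 13.1% of these cells. For comparison αβ T cells stood at 168, 694, 303 and 507 CPM, so the cells with Trdv4 lay within the αβ range and those without it below it. Icos, a costimulatory receptor, stood at 578, 723, 414 and 615 CPM against 52.3 to 220.1 (2.30 ± 0.23, adjusted p = 1.36e-06). Other receptors of the list were lower with Trdv4, 5 of 10 tested, among them Tnfrsf9, the costimulator 4-1BB, at 27.9 to 85.6 CPM against 129 to 299 (-2.87 ± 0.32, adjusted p = 4.53e-06), and Slamf7 at 4.79 to 28.5 CPM against 65.7 to 164 (-3.56 ± 0.43, adjusted p = 9.94e-06). The 299 CPM of Tnfrsf9 was that of cKO replicate 2, where 1 cell held 33 of 53 UMIs. Without that cell the level was 127 CPM.

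The cells with 0 Trdv4 UMIs carried the cytotoxic list, of which 13 of 16 genes tested were lower with Trdv4 and 0 higher, with a median of -2.53. Xcl1, the chemokine that attracts cross-presenting dendritic cells, stood at 909, 1138, 1100.0 and 1067 CPM without Trdv4 and at 13.9, 9.57, 85.6 and 3.11 with it (-6.13 ± 0.37, adjusted p = 1.83e-09). Gzmb, a granzyme, stood at 734, 1372, 1104 and 1298 CPM without Trdv4 and at 76.6 to 149 with it (-3.45 ± 0.21, adjusted p = 2.16e-09). Nkg7, a protein of cytotoxic granules, stood at 1394 to 2012 CPM without Trdv4 and at 146, 14.4, 499 and 55.9 with it (-3.92 ± 0.42, adjusted p = 3.01e-06). In Xcl1 and Nkg7 the cells with Trdv4 of cKO replicate 1 had the highest level of the 4 libraries. Of these 11 cells, 1 held 28 of the 35 Nkg7 UMIs and 1 held 4 of the 6 Xcl1 UMIs. Without the top cell Nkg7 stood at 129 CPM and Xcl1 at 36.8 CPM there. Gzmc stood at 2631, 65.8, 430.4 and 2331 CPM without Trdv4 and at 62.7, 28.7, 28.5 and 21.7 with it (-5.37 ± 0.45, adjusted p = 1.61e-07). Without the top cell of each library on the Trdv4-free side it stood at 182, 58.0, 229 and 12.7 CPM there. In cKO replicate 2 it was then below the level with Trdv4. In cKO replicate 2 a single cell without Trdv4 held 411 of 413 Gzmc UMIs, and the top cell held 143 of 189 Xcl1 UMIs and 142 of 230 Gzmb UMIs. Without the top cell Xcl1 and Gzmb stood at 293 and 557 CPM there, still above the cells with Trdv4. A UMI of Ifng was found in 35.8% of cells without Trdv4 and 3.91% with it, and a UMI of Tbx21 in 43.8% and 7.81%.

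NK receptors were part of that profile, with 7 of 9 genes tested lower with Trdv4 and 0 higher. Klrc1 and Klrd1, which form the CD94-NKG2A receptor for Qa-1, stood at 198 to 487 CPM against 9.32 to 114 (-3.58 ± 0.30, adjusted p = 1.61e-07) and at 265 to 578 CPM against 9.32 to 214 (-3.17 ± 0.35, adjusted p = 3.94e-06). Cd160 had 163 UMIs without Trdv4 and 3 with it, a ratio of 35.5 (exact 95% counting interval 11.9 to 174, adjusted p = 1.1e-05). Ly6c2 stood at 2376, 4233, 3397 and 1733 CPM without Trdv4 and at 27.9, 124, 85.6 and 62.1 with it (-5.35 ± 0.20, adjusted p = 1.25e-12). The survival gene Bcl2 had a difference of -1.87 ± 0.24 (adjusted p = 1.98e-05). The 14 macrophage and monocyte markers, which include Ly6c2, summed to 947, 1651, 328 and 450.5 CPM with Trdv4 and to 2817, 4837, 4088 and 3223 without it. Most of the sum without Trdv4 was the Ly6c2 level given above. With Ly6c2 left out, the rest of the sum was higher with Trdv4 in both WT libraries and lower in both cKO libraries. The 8 NK markers summed to 368.5 to 2025 CPM with Trdv4 and to 1368 to 4634 without it. The part of both marker sets in the differences was not tested. Of 8 dendritic cell markers 1 was tested, H2-Ab1, and it was higher with Trdv4 by 1.95 ± 0.47 (adjusted p = 0.00521). The 8 summed to 97.5, 492.9, 14.3 and 93.2 CPM with Trdv4 and to 38.3, 40.2, 33.8 and 107 without it, and their part was not tested either. In WT replicate 2 a single cell held 89 of the 102 H2-Ab1 UMIs found with Trdv4.

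Proximal signalling differed gene by gene, with 4 of 15 genes tested higher with Trdv4 and 8 lower. Lck, the Src-family kinase that starts receptor signalling in αβ T cells, stood at 20.9, 9.57, 99.8 and 9.32 CPM with Trdv4 and at 454, 508, 452 and 367 without it (-4.41 ± 0.36, adjusted p = 1.18e-07). Blk, the related kinase, had a UMI in 78.1% of cells with Trdv4 and 13.1% of cells without it. Lat stood at 699 to 981 CPM against 264 to 327 (1.47 ± 0.16, adjusted p = 3.17e-06), and Cd247, the ζ chain of the receptor complex, at 528 to 761 CPM against 138 to 378 (1.72 ± 0.21, adjusted p = 8.71e-06). Cd2, an adhesion receptor, had -2.50 ± 0.27 (adjusted p = 3.23e-06).

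Other genes with the largest differences were Ckb, the brain creatine kinase, with 3.54 ± 0.25 (adjusted p = 2.08e-08), the keratin gene Krt83 with 3.72 ± 0.35 (adjusted p = 5.85e-07), Rln3, which encodes a relaxin peptide, with 4.15 ± 0.56 (adjusted p = 2.84e-05), and the survival gene Bcl2a1a with 4.36 ± 0.44 (adjusted p = 1.15e-06), which has near-identical copies. Krt83 stood at 299, 139, 242 and 211 CPM with Trdv4 and at 0 to 30.1 without it. In the other direction Gramd3 had 297 UMIs without Trdv4 and 1 with it, a ratio of 194 (exact 95% counting interval 34.5 to 7680, adjusted p = 7.77e-09). Ier5l and Metrnl had differences of -4.16 ± 0.46 (adjusted p = 3.54e-06) and -3.97 ± 0.40 (adjusted p = 1.29e-06).

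Of 18 immediate-early and activation genes tested, 12 were higher with Trdv4 and 1 lower. Nfkbia and Nfkbid, inhibitors of NF-κB that this pathway induces, had 1.48 ± 0.15 (adjusted p = 1.44e-06) and 1.73 ± 0.16 (adjusted p = 5.85e-07), the phosphatase gene Dusp1 1.55 ± 0.15 (adjusted p = 1.01e-06) and Junb 1.08 ± 0.12 (adjusted p = 4.77e-06). Hspa1a stood at 4240.0 to 7116 CPM against 812 to 2551 (adjusted p = 1.19e-07) and Hspa1b had a difference of 1.76 ± 0.16 (adjusted p = 3.46e-07), while the mitochondrial chaperone Hspd1 had -0.83 ± 0.16 (adjusted p = 0.00115). The tumours had been digested, frozen and thawed before sorting, and the part of that handling in these transcripts was not tested. The endoplasmic reticulum stress list had 7 of 16 genes tested higher and 0 lower. Of 4 UFM1 conjugation genes tested 1 was called, the ribosomal protein gene Rpl26, whose product is a UFM1 target, at -0.70 ± 0.12 (adjusted p = 0.000436). Tpi1, Cycs, Lgals3 and Ifi27l2a were lower with Trdv4, with differences of -1.60 ± 0.32, -0.92 ± 0.18, -1.64 ± 0.26 and -1.69 ± 0.21 (adjusted p from 1.2e-05 to 0.00145). Among the cells without Trdv4 of cKO replicate 2, 1 cell held 43 of 73 Tpi1 UMIs and 1 held 66 of 128 Ifi27l2a UMIs. In WT replicate 2, 1 held 40 of 70 Lgals3 UMIs.

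**Figure D3:**
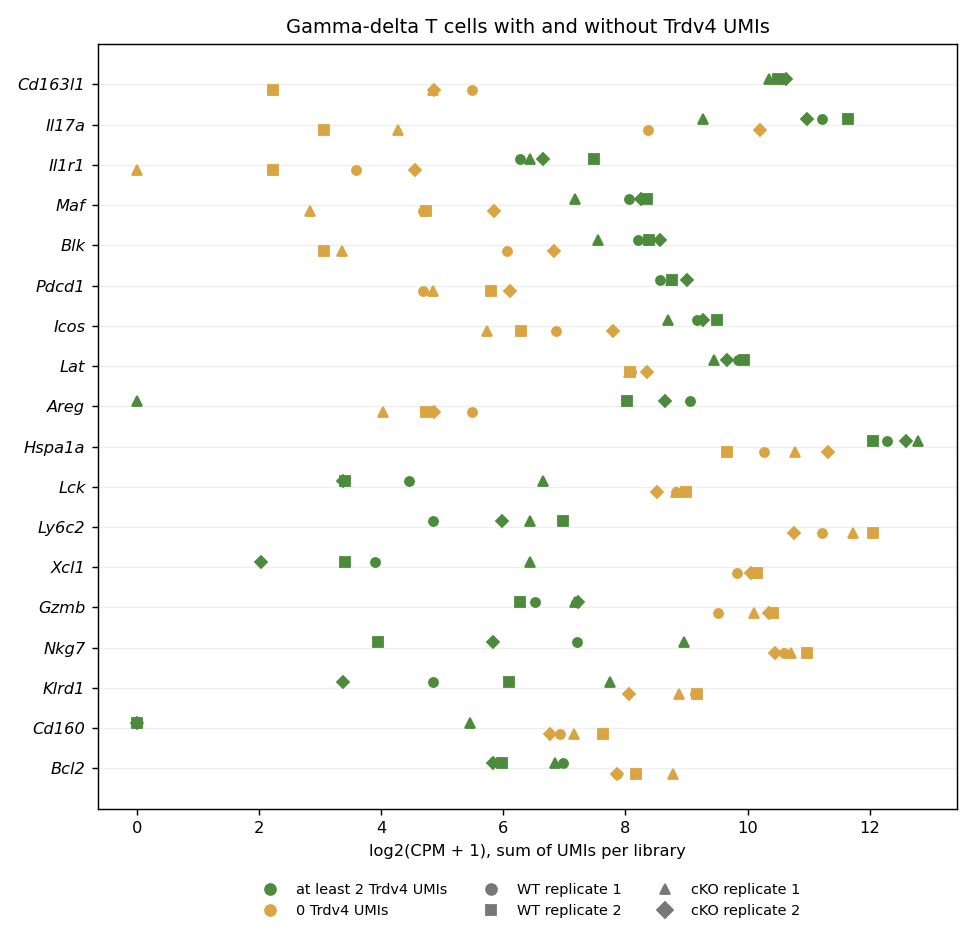
Level of 18 genes as log2(CPM + 1) (horizontal axis) in γδ T cells with at least 2 Trdv4 UMIs (green) and with 0 (ochre), with 1 symbol shape for each of the 4 libraries. The 2 colours lie apart for Cd163l1, Pdcd1, Lck, Ly6c2 and Xcl1 in all 4 libraries, and Areg has 1 green point at 0, in cKO replicate 1.

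The 2 programmes seldom met in 1 cell. A cell was counted for the IL-17 set when Il17a, Il17f, Il23r, Cd163l1 and Il1r1 together had at least 2 UMIs, and for the type-1 set likewise with Ifng, Tbx21, Eomes, Gzma, Gzmb and Xcl1. Over all 272 γδ T cells, 127 met the IL-17 set alone, 98 the type-1 set alone, 21 both and 26 neither. With Trdv4 these were 84.4%, 0.781%, 14.8% and 0%, and without it 13.1%, 67.2%, 1.46% and 18.2%. The 19 cells that met both sets with Trdv4 were 3, 3, 4 and 9 in the 4 libraries. The gene sets were chosen with results known, so these numbers carry no test.

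**Figure D4:**
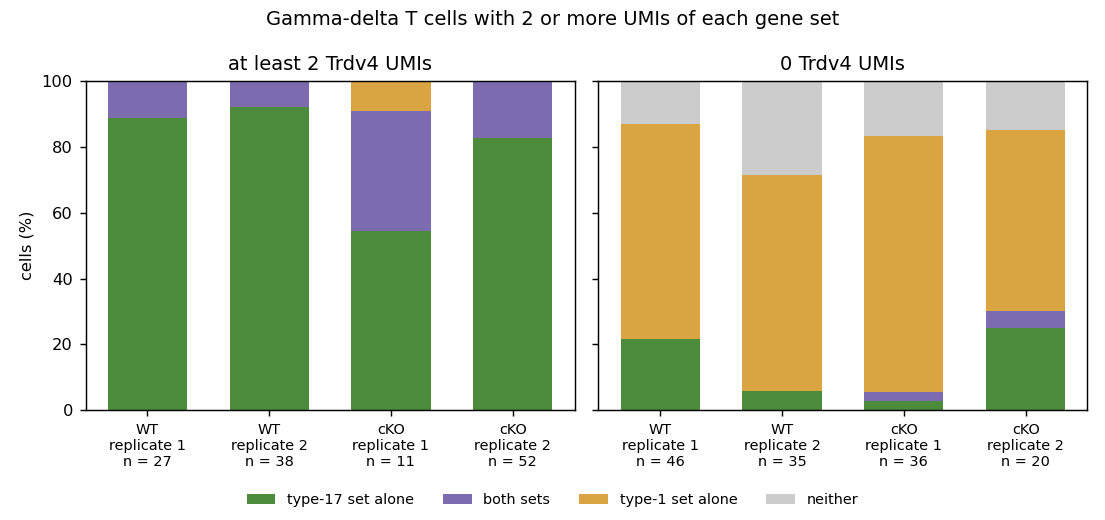
Share of cells in percent (vertical axis) that had at least 2 UMIs of the IL-17 set, of the type-1 set, of both or of neither, in each of the 4 libraries, for γδ T cells with at least 2 Trdv4 UMIs (left panel) and with 0 (right panel). In the left panel 1 of 128 cells met the type-1 set alone, and in the right panel 92 of 137 did.

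For the genotype comparison the targeted gene comes first. Ufl1 had 17, 8, 8 and 10 UMIs in the γδ T cells of the 4 libraries, or 33.4, 16.0, 17.8 and 19.8 CPM, so the cKO values lay within the WT range. In αβ T cells it stood at 17.1, 18.8, 14.1 and 17.1 CPM, and the γδ against αβ difference was 0.35 ± 0.29 (adjusted p = 0.672). Since the deleted exons are not named, UMIs of Ufl1 may come from outside them and check neither genotype. Ufl1 was too low to be tested between genotypes in γδ T cells.

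No gene was called between cKO and WT γδ T cells. Of 5633 genes tested 0 were higher and 0 lower with edgeR's quasi-likelihood test (0.0%), 155 had an unadjusted p under 0.05, and DESeq2 also called 0. The 2 cKO and the 2 WT values did not overlap for 1685 genes, 29.9% of those tested. In each of the 20 gene lists 0 genes were called, and list medians lay between -0.25 and 0.42, the highest being that of the NK receptors. Removing either cKO library gave calls, with 26 higher and 46 lower without cKO replicate 1, and 37 higher and 62 lower without cKO replicate 2, where the lone cKO library is assumed to vary like the WT libraries. Without WT replicate 1 there were 0 higher and 2 lower, and without WT replicate 2 there were 0 in both directions. The difference between genotypes was not shown to differ from that in αβ T cells, since the interaction had 0 genes called among 8096 with edgeR (0.0%), 129 at an unadjusted p under 0.05, and 0 with DESeq2.

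The values of the genes with the smallest p are given as levels. Ccl4, a chemokine with near-identical relatives, stood at 35.4 and 70.1 CPM in WT and at 240.5 and 192 in cKO (log2 difference 2.02 ± 0.36, adjusted p = 1). In cKO 1 cell held 59 of 108 Ccl4 UMIs in replicate 1 and 1 held 47 of 97 in replicate 2, and without these the levels were 112 and 100.1 CPM. Ccl4 was called in 3 of 14 alternatives, those with no filter on low counts, without cKO replicate 1 and without cKO replicate 2. In αβ T cells Ccl4 stood at 365, 455, 402 and 478 CPM, so all γδ values were below all αβ values, and the interaction was 1.98 ± 0.38 (adjusted p = 1). Ccl3, a related chemokine, stood at 3.93 and 12 CPM against 28.9 and 43.5. Stmn1, which destabilises microtubules, stood at 134 and 124 CPM in WT and at 60.1 and 61.3 in cKO, and Abhd12, a lipid hydrolase, at 31.4 and 28.1 against 6.68 and 7.91. Hip1r, Klra4, Sugp1 and Gata3 had differences of 1.43 ± 0.36, 1.84 ± 0.49, 2.21 ± 0.59 and 1.18 ± 0.32 (adjusted p = 1 for each).

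The IL-17 genes and Pdcd1 varied more within cKO than between genotypes. Il17a stood at 908 and 1337 CPM in WT and at 131 and 1699 in cKO (-0.38 ± 0.86, adjusted p = 1). Cd163l1 stood at 459.8 and 605 CPM in WT and at 245 and 1021 in cKO (0.18 ± 0.53, adjusted p = 1), and Pdcd1 at 124 and 212 against 105 and 350.1 (0.39 ± 0.49, adjusted p = 1). For all 3 genes the 2 WT libraries lay between the 2 cKO libraries, as they did for the share of cells with Trdv4. A UMI of Il17a was found in 32.9%, 50%, 13.5% and 68.5% of the γδ T cells of the 4 libraries, the same order as the 37.0%, 51.4%, 21.2% and 71.2% of cells with at least 2 Trdv4 UMIs. Among the cells with Trdv4 alone the Cd163l1 difference between genotypes was -0.018. Il17a in those cells stood at 2375 and 3182 CPM in WT and at 613 and 2020 in cKO. There both cKO values were below both WT values, and cKO replicate 1 had 11 such cells. Over all γδ T cells such an absence of overlap was found for 29.9% of genes tested, and among the cells with Trdv4 that share was not counted. Single cells held part of these levels. Without the top cell of each library, Il17a with Trdv4 stood at 1715 and 3000 CPM in WT and at 365 and 1640 in cKO. The part of the Trdv4 share in the genotype values was not tested. None of the differences over all γδ T cells passed the test, which does not show that cKO and WT γδ T cells are alike in these genes.

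**Figure D5:**
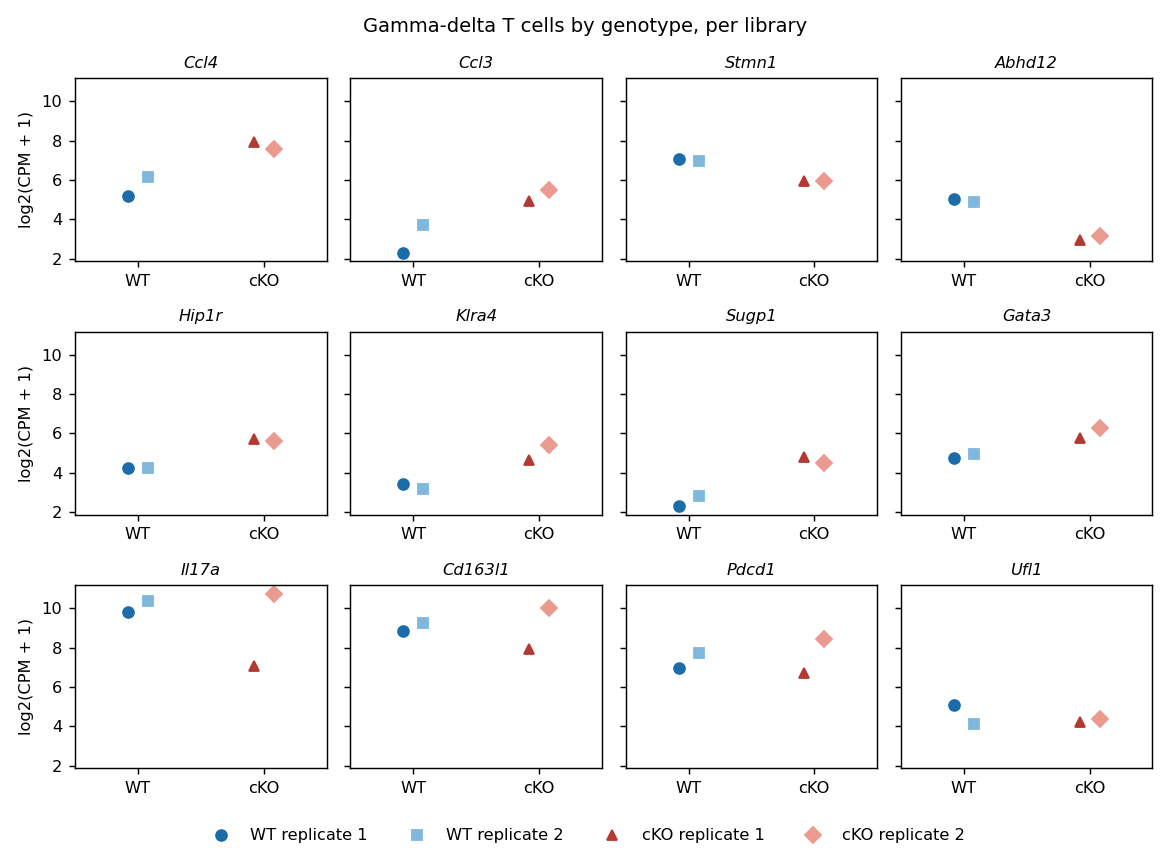
Level of 12 genes in γδ T cells as log2(CPM + 1) (vertical axis) in WT and cKO (horizontal axis), with 1 point for each library. Both cKO points lie above both WT points for Ccl4 and Ccl3 and below them for Stmn1 and Abhd12, while for Il17a, Cd163l1 and Pdcd1 the WT points lie between the cKO points.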

How the data were processed

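Per the labels' protocols, tumours were digested with collagenase, frozen, thawed and sorted for CD45 before droplet single-cell RNA sequencing. The authors deposited raw UMI counts for each gene and barcode, from Cell Ranger (version 6.1.1 per the file headers). CASAVA 1.8 and Seurat appear in the submitters' processing notes. The genome build is not given in the sources used here.

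Of 32801 barcodes, the 32396 with 300 or more genes and no more than 15% mitochondrial UMIs were used. Scrublet's automatic threshold called 0 doublets and was judged not to have worked, and removal of the highest scores at 0.8% per 1000 cells (2117 cells, 4 of them γδ T cells) was an alternative. Raw counts were summed per library and cell set and tested with edgeR 4.0.16 (R 4.3.3; TMM, filterByExpr, quasi-likelihood test, Benjamini-Hochberg over all genes tested) with the library as a block, except between genotypes. DESeq2 1.42.0 was an alternative. SE is the fold change divided by the root of the F statistic. Python 3.11.15, numpy 2.4.6, scipy 1.17.1, pandas 2.3.3, scanpy 1.11.5 and matplotlib 3.10.9 were used. The tests were tried on simulated counts.

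The members and the 29 gene lists (413 genes, 411 among the 31253 features) were chosen with earlier results of these data known. Named genes were, in each direction, the 8 largest changes at an adjusted p under 0.05, with 1 direction in every library and at least 100 CPM in the higher set, up to 4 genes per list by p, and Il17a, Cd163l1, Ufl1 and Pdcd1. Between genotypes they were the 8 smallest p, up to 3 per list and the same 4 genes. The text describes a part of these, and some genes are not reported here. The UMIs of a gene in its top cell were counted after the levels had been seen, with no test. Gate genes and receptor segments were left out of counts and of named genes. Sex-linked genes were left out of named genes and gene lists, but the counts of genes tested and called can include them.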

Additional observations from a re-analysis of the deposited data

Results flagged for a closer look

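Of 122 sets of 4 per-library log2 differences, 8 held 1 library far from the other 3 by Dixon's ratio at the 95% level, which chance gives in about 1 in 20. Between γδ and αβ T cells, Klra7 differed by 5.447 in cKO replicate 1 and by 1.637 to 2.092 in the other libraries. Between γδ T and NK cells, Ly6c2 differed by 0.921 in cKO replicate 2 and by 3.515 to 3.821 in the others. The other 6 compare γδ T cells with Trdv4 to those without it. Gzmb differed by -4.192 in WT replicate 2 and by -3.139 to -2.983 in the others, and Tox, a transcription factor of T cell development, by 2.55 in WT replicate 1 and by 1.252 to 1.372 in the others. The remaining 4 stood apart in cKO replicate 1, which had 11 cells with Trdv4. There Areg differed by -1.567 (2.812 to 3.372 in the others), Il7r by 3.076 (1.304 to 1.514), Tnfrsf9 by -0.668 (-3.108 to -2.912) and Ifi27l2a by -2.853 (-1.406 to -1.303). The Areg value rested on no Areg UMI in the cells with Trdv4, so it shows no direction.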

How the results depend on the processing

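The cause of each move was not tested unless the alternative itself has fewer cells or more genes. In γδ against αβ T cells the count of higher genes was 346 and of lower genes 319 with no filter on low counts, the lower count was 131 in cells with at most 1 αβ constant UMI, and leaving out 1 library gave 54 to 275 higher and 37 to 106 lower. Against NK cells the lower count was 381 with DESeq2, 902 with no filter and 372 to 619 with 1 library left out. For Trdv4 the higher and lower counts were 213 and 211 with DESeq2, 176 and 158 with at least 3 Trdc UMIs, 174 and 187 with at most 1 αβ constant UMI, and 234 to 351 lower with 1 library left out. A looser Trgv6 split, chosen after the data were seen, had 230 higher and 243 lower genes, 118 and 116 with DESeq2, 111 and 145 with at least 3 Trdc UMIs, 60 and 63 with at most 1 αβ constant UMI, and 92 to 260 and 149 to 264 with 1 library left out. Between genotypes there were 4 higher and 3 lower with no filter, 0 to 37 higher and 0 to 62 lower with 1 library left out, and 1 lower among cells with Trdv4. The interaction had 2 higher and 7 lower with no filter and 0 to 1 lower with 1 library left out.

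With the replicate block 0 genes were higher and 0 lower between genotypes. Same-numbered libraries correlated at 0.113 in their deviations over 5662 genes, and the labels give the number no further meaning. Of the genotype differences that changed sign, Il17a was -3.04 to 0.48 with 1 library left out and 1.64 among cells without Trdv4. Cd163l1 was -0.066 with the replicate block, -0.018 among cells with Trdv4, and -1.07 to 0.82 with 1 library left out. Pdcd1 was -0.061 with at least 3 Trdc UMIs and -0.63 to 0.94 with 1 library left out. All 360 values of the 30 genes named against NK cells kept direction and call, as did all 640 for the 55 genes named for Trdv4 and 416 of 443 for the 37 genes against αβ T cells, where 27 lost the call. The planned Trgv6 comparison and the genotype comparison within Trgv6 cells were not run, for too few cells. The exact test of the strict Trgv6 share (53.3%, 76.5%, 31.6% and 75.8% in the 4 libraries) gave p = 0.667.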
